A study of Mus musculus with 7 samples.

Results

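Gab1, Sfmbt2, Slc38a4, Jade1 and Smoc1 are 5 autosomal mouse genes taken from a fixed list of genes imprinted through maternal H3K27me3, and their H3K4me1 was described here in single zygotes. They were chosen by name and not by their values, out of 49943 annotated genes on chromosomes 1 to 19, X and Y, of which 20665 are autosomal and protein-coding. All 5 were found by symbol. Non-canonical imprinting works through a histone mark in place of DNA methylation: the oocyte lays down H3K27me3, the mark of Polycomb repressive complex PRC2, over the gene, the mark stays on the maternal copy after fertilisation, and the paternal copy is the one expressed in the early embryo. In the placental lineage such genes can later come to carry DNA methylation differences. H3K4me1, the mark measured here, is known from enhancers and from the bodies of active genes, and is written by enzymes of the MLL family.

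The series profiled untreated single mouse zygotes with a multiome assay that pairs CUT&Tag for 1 histone mark, in which an antibody directs the Tn5 transposase to marked chromatin, with the transcriptome of the same cell. Its 7 samples were 2 batches with an H3K27me3 antibody and 1 transcriptome sample, and 2 batches with an H3K4me1 antibody and 2 transcriptome samples. Superovulation used pregnant mare serum gonadotropin (5 IU) followed after 46 to 48 h by human chorionic gonadotropin (hCG, also 5 IU), and zygotes were taken at 23 post-hCG, a number the labels give without a unit. Each batch held the zygotes of 1 mouse, and cumulus cells and the zona pellucida were removed. The labels of the H3K27me3 batches and their transcriptome sample name B6D2F1/J females aged 6 weeks and C57BL6/J males aged 3 to 6 months, and the labels of the H3K4me1 batches used here give neither strain nor age. Values come from the H3K4me1 fragments alone, and data of the other assays were not analysed here. Fragments were not assigned to a parental copy, so every value below sums the maternal and paternal copies.

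Of 16 zygote libraries, 14 held at least 5000 fragments and were pooled, with 1404305 fragments in all, from 7106 in library 5-11 to 197312 in library 5-4 and a median of 96240. Library names carry a 4 (3 of the pooled libraries) or a 5 (11 libraries), but no label says which batch a number stands for, and the pool is therefore 1 sample without replicates, test or standard deviation. A level is the number of fragments per bp of a gene with 2.5 kb on each side, divided by the autosomal mean, which was 5.62 fragments per 10 kb. A level of 1 is thus the autosomal mean. Each 95% interval is exact (Poisson for a level, Clopper-Pearson for a ratio) and covers counting error only: reads were amplified and carry no molecular identifiers, so they cannot be counted as separate molecules. A level is called above or below 1 where its interval leaves out 1.

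The list holds genes of different roles. Gab1 encodes an adaptor that docks signalling proteins downstream of receptor tyrosine kinases. Sfmbt2 encodes a Polycomb group protein that is needed in the trophoblast. Jade1 encodes a PHD finger protein that serves as a scaffold of the HBO1 histone acetyltransferase complex. Slc38a4 encodes a transporter of neutral amino acids that acts in the placenta, and Smoc1 encodes a secreted, calcium-binding matricellular protein.

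The sequence just before the outer start of a gene shows how far the genes differ in CpG content, a feature that the choice of the list did not use and that bears on whether DNA methylation can act at a start. RefSeq sequences for GRCm38.p6, the assembly of mm10, were at hand for 4 of the 5 genes, with 11 starts, and none was at hand for Smoc1. The 250 bases before the outermost start are printed 5′ to 3′ on the strand of the gene, with each CpG in capitals.
Gab1, minus strand, chr8:80880520-80880769: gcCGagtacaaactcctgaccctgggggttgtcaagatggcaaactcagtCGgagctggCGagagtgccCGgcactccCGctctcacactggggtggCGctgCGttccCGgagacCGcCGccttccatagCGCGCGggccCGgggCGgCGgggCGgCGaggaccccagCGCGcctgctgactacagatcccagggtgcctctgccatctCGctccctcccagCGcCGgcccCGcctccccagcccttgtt
Sfmbt2, plus strand, chr2:10370201-10370450: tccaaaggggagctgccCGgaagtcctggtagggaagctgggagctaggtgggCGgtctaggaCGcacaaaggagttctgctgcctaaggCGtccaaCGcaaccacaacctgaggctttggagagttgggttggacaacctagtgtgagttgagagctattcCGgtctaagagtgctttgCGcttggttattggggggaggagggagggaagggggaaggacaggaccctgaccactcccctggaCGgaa
Jade1, plus strand, chr3:41555484-41555733: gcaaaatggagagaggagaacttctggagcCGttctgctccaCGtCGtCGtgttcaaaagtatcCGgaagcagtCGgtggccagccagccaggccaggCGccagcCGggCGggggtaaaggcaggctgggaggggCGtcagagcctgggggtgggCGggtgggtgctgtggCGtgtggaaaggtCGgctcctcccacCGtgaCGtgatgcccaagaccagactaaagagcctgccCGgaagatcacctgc
Slc38a4, minus strand, chr15:97055957-97056206: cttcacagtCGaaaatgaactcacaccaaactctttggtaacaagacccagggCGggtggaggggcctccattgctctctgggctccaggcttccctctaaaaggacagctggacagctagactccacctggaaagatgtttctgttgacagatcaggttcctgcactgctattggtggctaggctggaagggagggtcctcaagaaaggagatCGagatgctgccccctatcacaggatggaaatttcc
The motif searched was CG, which reads the same on both strands. Gab1 had 24 CpGs in these 250 bases, a number that 12.0% of the 32851 promoters of the same table reached or passed. Jade1 had 16 CpGs, reached or passed by 25.4% of promoters, and Sfmbt2 had 8, reached or passed by 43.0%. Slc38a4 had 3 CpGs, which is below the median of 6 over the table, and 71.0% of promoters held as many or more. At least 1 CpG was found in 92.1% of all promoters. An inner start of Jade1, at 41563751, was the most CpG-rich of the 11, with 35 CpGs, and 2.97% of promoters held as many or more. The inner start of Sfmbt2, at 10372436, had 15 CpGs, reached or passed by 27.3% of promoters. None of the 4 printed stretches held the midpoint of an H3K4me1 fragment, where the autosomal mean predicts well under 1 fragment.

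Gab1, Slc38a4 and Smoc1 carried H3K4me1 fragments above the autosomal mean, and Sfmbt2 and Jade1 could not be told apart from it. The 5 levels ran from 1.05 to 1.98 with a median of 1.59, and all 5 point values lay above 1. The median was 1.21 over all 20665 autosomal protein-coding genes and 1.15 over the 3907 of them whose window was at least as long as the shortest of the 5 (66131 bp). Intervals lay above 1 for 3 of the 5 genes and below 1 for none. By the same call, 29.5% of all autosomal protein-coding genes were above 1 and 7.16% below, and of the 3907 long genes, where more fragments make a call easier, 41.3% were above and 15.5% below. A count of 3 in 5 genes is too small to be set apart from the share among long genes and is no result about the list as such. Summed over the 5 windows, 538 fragments gave a level of 1.48 (95% interval 1.36 to 1.61), beside a mean of 1.10 for long genes with a known strand. That interval leaves out the spread from gene to gene, and the sum is no result about the list either.

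**Figure D1:**
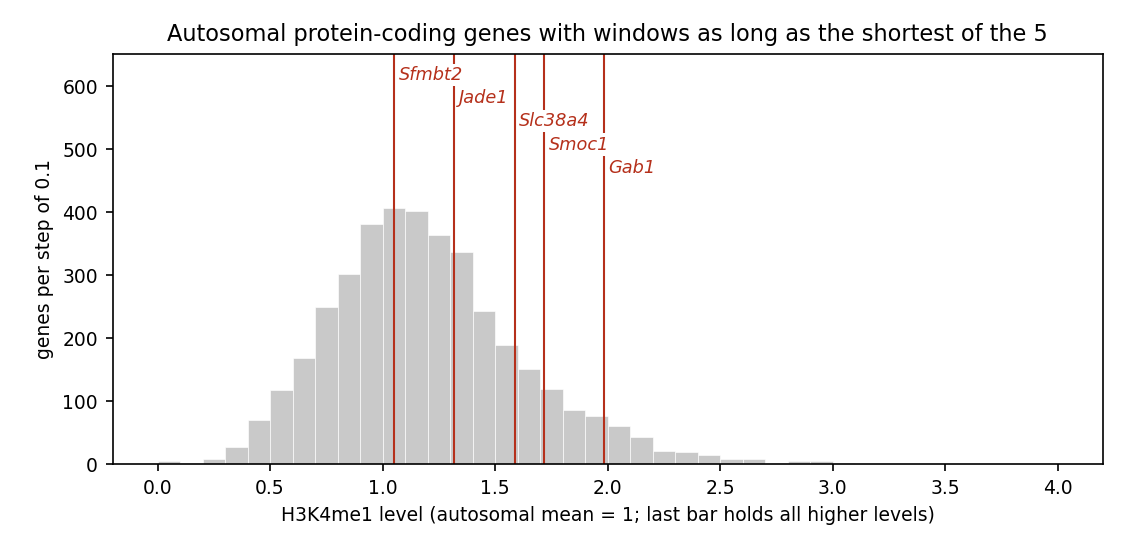
Histogram of the H3K4me1 level (horizontal axis, autosomal mean = 1) of 3907 long autosomal protein-coding genes (vertical axis, genes per step of 0.1; the last bar holds all higher levels), with the levels of the 5 genes marked. Sfmbt2 at 1.05 sits near the median of 1.15, and Gab1 at 1.98 sits in the upper tail.

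Across the 13 libraries with at least 20000 fragments, the level summed over the 5 genes ran from 0.360 (95% interval 0.098 to 0.922) in library 5-9, which held 4 fragments there, over a median of 1.46 to 2.20 in library 4-2. It was above 1 in 11 of these 13 libraries, and library 5-6 was just below with 0.957. The libraries named 4 together gave 1.40 (1.13 to 1.72) and those named 5 gave 1.49 (1.36 to 1.64), and these intervals overlap.

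Gab1 (gene ID 14388) lies on the minus strand of chromosome 8, from 80764431 to 80880519, and spans 116 kb. It had the highest level of the 5 genes, 1.98 (95% interval 1.66 to 2.35), from 135 fragments where 68.1 were expected at the autosomal mean. Its level in single libraries was lowest in 5-6 with 0.731, had a median of 2.21 and was highest in 5-5 with 3.91. It was above 1 in 11 of 13 libraries, and in 7 of these the interval of the library alone lay above 1. The high level was thus spread over the zygotes, and its 135 fragments came from 13 libraries. The libraries named 4 gave 2.14 (1.40 to 3.14) and those named 5 gave 1.95 (1.60 to 2.35). Among all autosomal protein-coding genes it stood at percentile 86.1, and among the long ones at percentile 94.5.

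Sfmbt2 (gene ID 353282) lies on the plus strand of chromosome 2, from 10370440 to 10595253, and at 225 kb is the longest of the 5 genes. It had the lowest level, 1.05 (0.883 to 1.25), with 136 fragments where 129 were expected, at percentile 40.0 of the long genes. Library levels ran from 0 in 5-9, where 3.94 fragments were expected, over a median of 0.918 to 2.61 in 4-2. Only 5 of 13 libraries were above 1, and the interval of a single library lay above 1 in 4-2 and below 1 in 5-9. Without library 4-2 the pooled level was 0.975. The libraries named 4 gave 1.26 (0.844 to 1.81) and those named 5 gave 1.01 (0.826 to 1.22).

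Jade1 (gene ID 269424) lies on the plus strand of chromosome 3, from 41555734 to 41616864, and spans 61.1 kb. Its level was 1.32 (0.975 to 1.74), with 49 fragments where 37.2 were expected. Library levels were 0 in 4-2 and 5-9, had a median of 1.11 and reached 3.90 in 5-2, with 7 of 13 libraries above 1. Library 5-2 alone held 11 of the 49 fragments against 2.82 expected, and without it the level was 1.11. The libraries named 4 gave 0.906 (0.332 to 1.97) from 6 fragments and those named 5 gave 1.41 (1.02 to 1.90), and the interval of the pool included 1. The pooled interval lay above 1 with 0 kb added to the gene (1.43, 1.06 to 1.89) or with 1 kb (1.38, 1.02 to 1.83), and without any 1 of the libraries 4-2, 5-5, 5-6 and 5-9, so its call rests on the window and on single libraries.

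Slc38a4 (gene ID 69354) lies on the minus strand of chromosome 15, from 96994816 to 97055956, and spans 61.1 kb. Its level was 1.59 (1.21 to 2.05), with 59 fragments where 37.2 were expected. Library levels ran from 0 in 5-9, where 1.13 fragments were expected, over a median of 1.68 to 2.48 in 5-2, and 9 of 13 libraries were above 1. Among these 13 libraries, the interval of the library alone lay above 1 only in 5-4, with 12 fragments and a level of 2.32. Both sets had like levels, with 1.66 (0.829 to 2.97) for names with 4 and 1.57 (1.16 to 2.08) for names with 5. The shallow library 5-11, which held no fragment at Gab1, Sfmbt2, Jade1 or Smoc1, held 3 at Slc38a4 where 0.186 were expected, a level of 16.1 (3.32 to 47.0). These 3 fragments lay 55.2, 49.8 and 40.0 kb from the outer start.

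Smoc1 (gene ID 64075) lies on chromosome 12 from 81026808 to 81186414 and spans 160 kb; its strand is not in the tables used here. Its level was 1.72 (1.46 to 2.01), with 159 fragments where 92.5 were expected, at percentile 88.3 of the long genes. Library levels ran from 0.593 in 4-5 over a median of 1.73 to 2.71 in 5-3, with 9 of 13 above 1 and 6 whose own interval lay above 1. The libraries named 5 gave 1.84 (1.55 to 2.17) and those named 4 gave 1.15 (0.694 to 1.80), from 19 fragments. The ratio of the larger to the smaller set was 1.60 (0.986 to 2.73), and its interval includes 1.

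**Figure D2:**
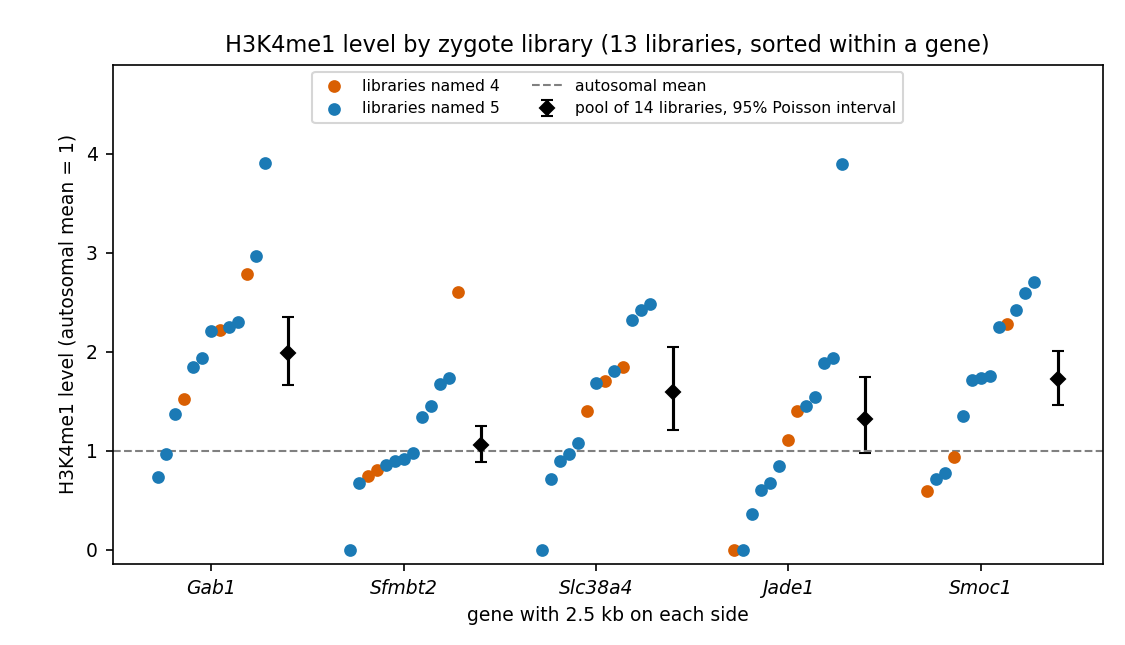
H3K4me1 level (vertical axis, autosomal mean = 1) of each gene with 2.5 kb on each side (horizontal axis) in 13 zygote libraries, coloured by the number in the library name, with the pool of 14 libraries as a diamond with its 95% Poisson interval. At Gab1, 11 of 13 libraries sit above 1, and at Sfmbt2 5 of 13 do.

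In the order Gab1, Smoc1, Slc38a4, Jade1, Sfmbt2, no gene could be told apart from the next by counting error. Gab1 stood at 1.15 times Smoc1 (95% interval of the ratio 0.911 to 1.46), Smoc1 at 1.08 times Slc38a4 (0.798 to 1.49), Slc38a4 at 1.20 times Jade1 (0.810 to 1.80) and Jade1 at 1.25 times Sfmbt2 (0.884 to 1.75). Across wider steps, 4 of the 10 pairs differed beyond counting error. Gab1 was 1.88 times (1.47 to 2.41), Smoc1 1.63 times (1.29 to 2.07) and Slc38a4 1.51 times (1.09 to 2.06) as high as Sfmbt2, and Gab1 was 1.50 times (1.08 to 2.13) as high as Jade1. The 10 intervals were not adjusted for their number.

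The surroundings split the 3 genes above the mean: Gab1 and Smoc1 stood above their own 200 kb flanks, and Slc38a4 did not. Among the 3907 long genes, 19.7% were above their flanks and 13.7% below by the same interval, with a median ratio of 1.03. Gab1 was 1.66 times (95% interval 1.34 to 2.05) as high as both flanks together and higher in 11 of 13 libraries. Its flank was at 0.996 on the lower-coordinate side and 1.40 on the higher-coordinate side. Smoc1 was 1.44 times (1.18 to 1.76) as high as its flanks, at 1.17 and 1.21, and higher in 9 of 13 libraries. Both ratios were lower with nearer flanks of 50 kb, at 1.28 (0.972 to 1.70) for Gab1 and 1.09 (0.832 to 1.42) for Smoc1, whose intervals include 1, and for Smoc1 with 100 kb also (1.19, 0.947 to 1.48).

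Slc38a4 lay between flanks that were raised on average, though not in every bin: 10 of their 40 bins had an interval above 1 and 0 below. Its level of 1.59 stood between flanks of 1.55 on each side, which held 174 fragments apiece, and the ratio was 1.03 (0.764 to 1.35), with 6 of 13 libraries higher in the gene. Jade1 and Sfmbt2 lay between unlike sides. Jade1 had 1.78 on the lower-coordinate side and 0.845 on the higher, so that the gene was 1.56 times (1.08 to 2.22) as high as the latter and 0.741 times (0.531 to 1.02) as high as the former. Sfmbt2 had 1.59 on the lower side and 0.925 on the higher. At 0.661 times (0.525 to 0.831) it was below the lower side, while against both sides the ratio was 0.836 (0.677 to 1.03). With other protein-coding genes left out of both flanks, the ratio was 1.01 (0.803 to 1.27) for Sfmbt2 and 0.782 (0.560 to 1.07) for Jade1. In that setting it was 1.40 (1.11 to 1.76) for Gab1, 1.53 (1.17 to 2.01) for Smoc1 and 1.03 (0.764 to 1.36) for Slc38a4.

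Both of these genes are on the plus strand, so that the richer flank is the one upstream of the gene. Upstream over downstream was 2.11 (1.64 to 2.72) for Jade1, with the upstream side higher in 13 of 13 libraries. It was 1.72 (1.34 to 2.21) for Sfmbt2, in 12 of 13 libraries, and 1.40 (1.09 to 1.80) for Gab1, in 10 of 13, while for Slc38a4 it was 1.00 (0.806 to 1.24). The interval lay above 1 for 3 of these 4 genes and for 17.2% of 3026 long genes with a known strand. The contrast of the sides was chosen after its values were seen, and a set of 4 genes is a description and no rule.

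**Figure D3:**
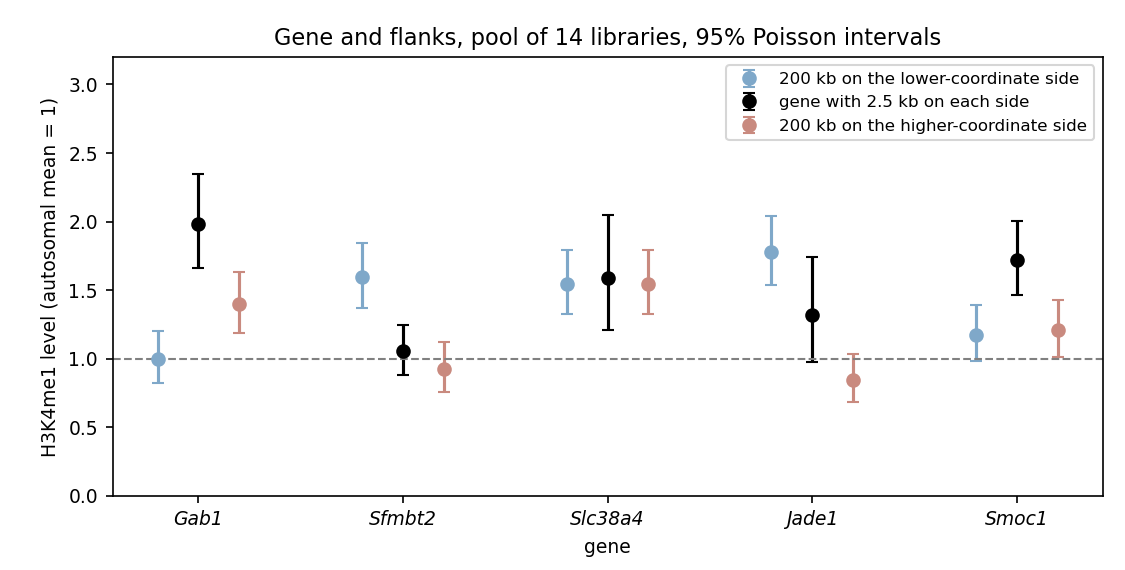
H3K4me1 level (vertical axis, autosomal mean = 1) with 95% Poisson intervals of each gene and of 200 kb on its lower-coordinate and higher-coordinate side (horizontal axis, gene). Gab1 at 1.98 and Smoc1 at 1.72 sit above both sides, and Slc38a4 sits level with both. Jade1 and Sfmbt2 each have 1 side above 1 and 1 side whose interval includes 1.

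Along the genes the fragments were spread over many 10 kb bins and did not gather in a single peak. Of 67 bins that touch the 5 genes, 17 (25.4%) had an interval above 1 and 2 (2.99%) below, where 7.92% of 240328 autosomal bins were above and 11.6% below. In the 200 kb flanks, 33 of 200 bins (16.5%) were above and 9 (4.50%) below. The autosomal share includes bins outside genes, and no share was taken for bins of other long genes, so the contrast is no result about these 5. Bins of 1 gene share its libraries and surroundings and are not independent. An enriched bin, with a level of 3 or higher and no fewer than 20 fragments out of 5 or more libraries, was found once in the 67 gene bins, in Gab1, and once in the flanks, against 0.518% of all autosomal bins.

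Within Gab1, 6 of 13 bins were above 1. The enriched bin, 80840001 to 80850000, lies inside the gene away from both ends and held 22 fragments from 9 libraries, at 3.91 (2.45 to 5.93), while the lowest 2 bins were at 0.890 with 5 fragments each. In 3 equal parts of the gene along transcription, the level was 1.89, 1.79 and 2.48, so that the excess was not held by a single part of Gab1, although its outer start had 1 fragment and its end 2 within 2.5 kb. Within Smoc1, 5 of 17 bins were above 1, the highest at 81080001 to 81090000 with 19 fragments from 9 libraries and a level of 3.38 (2.04 to 5.28). From its lower to its higher coordinates, the 3 parts of Smoc1 were at 1.37, 1.77 and 1.94. Within 2.5 kb of its higher-coordinate end the level was 3.56 (1.71 to 6.54) from 10 fragments, and at the other end 0.356 from 1 fragment.

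Along transcription, the 3 equal parts of Slc38a4 had levels of 1.13 (0.604 to 1.94), 1.57 and 2.10 (1.34 to 3.12), with overlapping intervals. Its bin over the outer start, 97050001 to 97060000, held 0 fragments, with an interval up to 0.656. The bin over its other end, 96990001 to 97000000, was its highest with 2.49 (1.36 to 4.18). Jade1 was highest in its middle part, at 2.18 (1.41 to 3.22) between 1.22 and 0.873, and its highest bin, 41590001 to 41600000, was at 2.31 (1.23 to 3.96). Sfmbt2 was flat with 1.14, 1.04 and 0.950, and only 2 of its 23 bins were above 1, both at 2.14 (1.10 to 3.73) with 12 fragments.

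**Figure D4:**
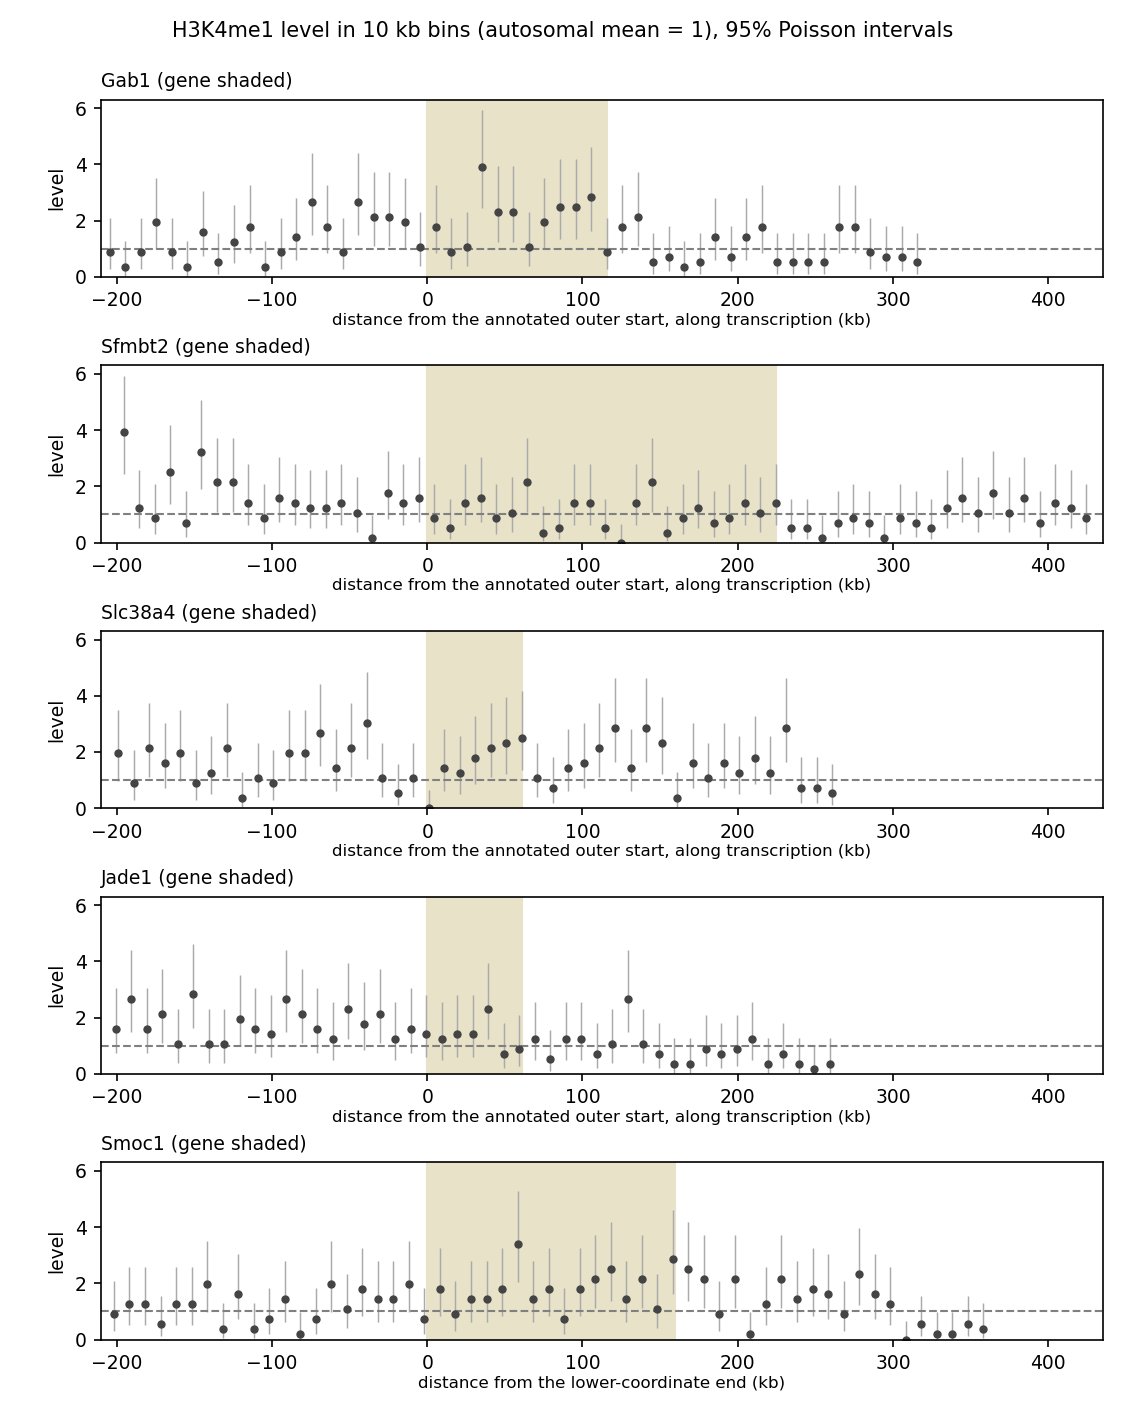
H3K4me1 level (vertical axes, autosomal mean = 1) with 95% Poisson intervals in 10 kb bins over each gene (shaded) and its flanks, by distance in kb from the outer start along transcription, or from the lower-coordinate end for Smoc1 (horizontal axes). Gab1 has 6 of 13 gene bins above 1 and Sfmbt2 has 2 of 23, and no gene has its peak at the start.

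Starts of transcription showed no excess that could be detected at this depth. Over all windows of 2.5 kb on each side of the 11 starts of Gab1, Sfmbt2, Jade1 and Slc38a4, merged where they overlap, 20 fragments lay where 21.7 were expected, a level of 0.924 (0.564 to 1.43). That was 0.643 times (0.388 to 1.01) the rest of the same 4 gene windows and lower than it in 9 of 13 libraries. Starts of the long genes with a known strand had a mean level of 1.05 and a median of 0.712, beside a mean of 1.10 for the genes themselves. Gab1 had 1 fragment at its starts, 0.172 times (0.004 to 0.974) the rest of the gene, and with windows of 1 kb the ratio was 0.435 (0.011 to 2.47), whose interval includes 1. At the outer start of Slc38a4 there were 0 fragments, with an interval up to 1.31, and at its innermost start, 97020359, there were 6, a level of 2.13 (0.783 to 4.65). Each of the 4 starts of Jade1 had 3 or 4 fragments and each of the 2 starts of Sfmbt2 had 2. None of the 11 windows had an interval above 1, and 10.6% of 20085 gene starts did, so a count of 0 here says little about these 4 genes.

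Sfmbt2 also hosts a large block of miRNA genes in an intron, known for placental miRNAs of the Mir466, Mir467, Mir669 and Mir297 families. The annotation placed 72 miRNA genes inside Sfmbt2, with 23 of Mir466, 14 of Mir467, 29 of Mir669, 5 of Mir297 and 1 other, from 10466663 to 10518279. These 51.6 kb held 32 fragments from 11 libraries, a level of 1.10 (0.754 to 1.56), beside 1.03 (0.836 to 1.25) in the rest of the gene, and the ratio was 1.07 (0.698 to 1.61). Within the block, the bin from 10490001 to 10500000 spans 12 of these miRNA genes and held 0 fragments. The copies of these families resemble each other, and how reads from them were placed was not tested.

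Fragment lengths, which the choice of genes did not use, were close to those elsewhere. The share of 150 to 300 bp was slightly larger over the 5 genes together, though not at Jade1. Such fragments, about the length of 1 nucleosome with linker, made up 41.8% (37.6 to 46.1, exact binomial interval) of the 538 fragments at the 5 genes and 37.5% on the autosomes. Fragments of up to 120 bp made up 3.90% (2.43 to 5.90) and 5.03%. Gab1 had the highest share of 150 to 300 bp, 46.7% (38.0 to 55.4), and a median length of 285 bp against 322 bp overall. Slc38a4 was close to it, with 45.8% (32.7 to 59.2) and a median of 293 bp. At Sfmbt2, Jade1 and Smoc1 the shares were 40.4% (32.1 to 49.2), 34.7% (21.7 to 49.6) and 39.6% (32.0 to 47.7). The medians of Sfmbt2, Jade1 and Smoc1 were 325.5, 333 and 340 bp. No more than 4 fragments of 1 library lay over the same base in any of the 5 genes, with 4 at Gab1 and Smoc1, 3 at Sfmbt2 and 2 at Slc38a4 and Jade1.

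Within 200 kb of the 5 genes lie 15 other protein-coding genes, of which 4 were above 1 and 4 below, with a median level of 0.954. Over all autosomal protein-coding genes 29.5% were above and 7.16% below, with a median of 1.21. Beside Gab1, the chromatin remodeller Smarca5 was at 0.719 (0.426 to 1.14), the matrix gene Frem3 at 0.954 (0.703 to 1.26) and the deubiquitinase Usp38 at 1.04 (0.660 to 1.56). Upstream of Sfmbt2, Itih5, an inhibitor heavy chain that binds hyaluronan, was at 2.11 (1.76 to 2.51), and it holds the enriched flank bin from 10170001 to 10180000, with 22 fragments from 11 libraries. Its level was 3.05 in the libraries named 4 and 1.90 in those named 5.

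Beside Slc38a4, Pced1b was at 1.51 (1.25 to 1.80) and Amigo2, an adhesion molecule, at 0.866 (0.236 to 2.22). Beside Jade1, the centriole gene Sclt1 was at 0.986 (0.764 to 1.25) and D3Ertd751e was below 1, at 0.650 (0.416 to 0.967). Around Smoc1, the sodium-calcium exchanger Slc8a3 was at 1.53 (1.27 to 1.83), Susd6 at 1.38 (1.08 to 1.73) and the bile acid transporter Slc10a1 at 1.30 (0.728 to 2.15). Srsf5, a splicing factor, held 0 fragments, with an interval of its level up to 0.655, and Gm4787 had 2. Gm20498 (0.586, 0.446 to 0.756) and Cox16 (0.542, 0.387 to 0.738), a factor of cytochrome c oxidase assembly, were below 1 and overlap each other, so that they share most fragments.

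Of 24 long non-coding RNA genes in the same windows, 6 were above 1 and none below, with a median of 1.38. Over all 12408 autosomal lncRNA genes 18.1% were above and 7.19% below, with a median of 1.13. The highest was 2400006E01Rik, 27.3 kb upstream of Jade1, at 2.13 (1.52 to 2.91) with 39 fragments, and Gm40040 on the same side was at 2.02 (1.15 to 3.28). Gm32840, which overlaps Slc38a4, was at 1.29 (0.951 to 1.70), and Gm51580, which overlaps Gab1, at 1.60 (0.829 to 2.80).

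Relatives of the 5 genes that are not on the list served as a comparison of like function. Of 13 relatives, 8 (61.5%) were above 1 and none below, with a median of 1.43. The share above 1 was 29.5% over all autosomal protein-coding genes and 41.3% over the long ones, and counts this small are a description. Gab1 stood out from its relative Gab2, a docking adaptor of the same family at 0.973 (0.811 to 1.16), with a ratio of 2.04 (1.59 to 2.62) and a higher level in 11 of 13 libraries. Jade1 stood the other way, at 0.657 times (0.439 to 0.980) Jade2, which was at 2.01 (1.52 to 2.60). Still, Jade1 had the higher level in 5 of 13 libraries. Jade2 was at 0.987 in the libraries named 4 and 2.23 in those named 5, beside 0.906 and 1.41 for Jade1.

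The other pairs did not differ beyond counting error. Sfmbt2 was at 0.825 times (0.622 to 1.10) Sfmbt1, whose own level was 1.28 (1.01 to 1.59), and Smoc1 was at 1.20 times (0.931 to 1.55) Smoc2, at 1.43. Slc38a4 was at 0.848 times (0.596 to 1.20) Slc38a1, at 1.87, and at 1.10 times (0.609 to 2.14) Slc38a2, at 1.44; both are amino acid transporters on the same chromosome. Among the 10 autosomal Slc38 genes read, the highest level was 3.12 (2.23 to 4.25) at Slc38a3 and the lowest 0.675 (0.418 to 1.03) at Slc38a11. Slc38a4 thus sat within the range of these genes.

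**Figure D5:**
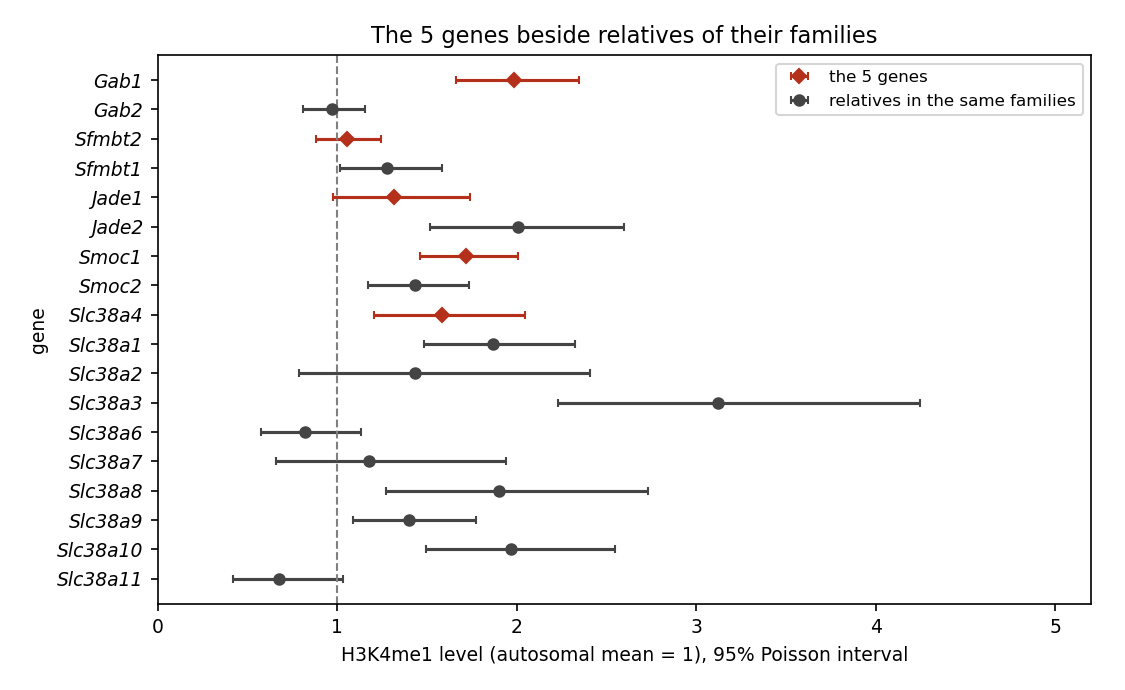
H3K4me1 level (horizontal axis, autosomal mean = 1) with 95% Poisson intervals of the 5 genes (diamonds) and 13 relatives of their families (circles; vertical axis, gene). Gab1 at 1.98 lies apart from Gab2 at 0.973, and Slc38a4 at 1.59 lies inside the range of the other Slc38 genes read, from 0.675 to 3.12.

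Genes for the H3K27me3 machinery and for DNA methylation were also read. Of 33 genes for writers, readers and erasers of H3K27me3 and their partners, 7 (21.2%) were above 1 and none below, beside 29.5% and 7.16% of all autosomal protein-coding genes, and the median was 1.19 beside 1.21. Of these 7, Dnmt1, Dnmt3a, Dnmt3b and Dnmt3l act in DNA methylation, and all 4 such genes on the list were above 1. Of the other 29 genes, 3 were above 1, where 29.5% of all autosomal protein-coding genes were. These were Phf1, Jarid2 at 1.20 (1.003 to 1.42) and Phf19 at 1.60 (1.01 to 2.40), the latter 2 only just. All 3 are PRC2 accessory factors, but Aebp2 at 0.962 (0.662 to 1.35), Epop at 1.21 (0.394 to 2.83) and Mtf2, also accessory, were not above 1. The split into 4 and 29 genes was not planned and is a description. The highest levels were those of Phf1, at 2.73 (1.53 to 4.50), and of the DNA methyltransferases Dnmt3a at 2.31 (1.96 to 2.71) and Dnmt1 at 2.13 (1.66 to 2.69). Dnmt3a was at 4.40 in the libraries named 4 and 1.86 in those named 5. The lowest were Mtf2, another PRC2 accessory protein, at 0.696 (0.419 to 1.09), and Pcgf2, of the PRC1 complex, at 0.765 (0.330 to 1.51). The PRC2 core genes could not be told apart from the mean, with Eed at 0.966 (0.563 to 1.55), Suz12 at 1.08 (0.719 to 1.56), Ezh2 at 1.22 (0.900 to 1.62) and Ezh1 at 1.41 (0.965 to 1.99). Among 34 genes imprinted through DNA methylation and their neighbours, 8 were above 1 and 4 below, with a median of 1.09.

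The level of a mark is not a level of RNA, and marker genes can test the zygote label only loosely. Of 12 oocyte and zygote genes, 6 were above 1 and 1 below, with a median of 1.80; the highest was Zp1 of the zona pellucida, at 2.99 (1.80 to 4.67), and Ooep held 0 fragments, with an interval up to 0.982. Of 10 cumulus and granulosa genes, 3 were above and 2 below, with a median of 0.931, and none was at 0. Those above were Amh at 2.63 (1.31 to 4.71), Inha at 2.15 (1.03 to 3.95) and Cyp19a1 at 1.44 (1.16 to 1.78). The lowest was Areg at 0.257. Over all autosomal protein-coding genes 29.5% were above and 7.16% below, with a median of 1.21. Lists of 12 and 10 genes are too small to be set apart from these shares. Whether fragments from cumulus cells took part in the levels of the 5 genes was not tested.

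Genes whose levels followed those of Gab1, Sfmbt2 and Smoc1 over the same 13 libraries were also sought, among about 1570 autosomal protein-coding genes with at least 100 fragments and more than 1 Mb away. The points share the libraries and their depth, and the correlations are a description. Nearest to Gab1 were Ntn1 (Pearson r = 0.846) and Cenpp (0.828), nearest to Sfmbt2 were Kcnk10 (0.921) and Jazf1 (0.907), and nearest to Smoc1 were Grik3 (0.821) and Dnajc1 (0.818). Of all genes compared, 8.08% passed an r of 0.5 with Gab1, 8.35% with Sfmbt2 and 7.20% with Smoc1. Slc38a4 and Jade1 had fewer than 100 fragments and were not compared.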

How the data were processed

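H3K4me1 CUT&Tag was measured in single mouse zygotes of 2 batches. The deposited table lists 1 fragment per line with its ends, its library and a count, which was 1 in every line as deposited by the authors, so fragments per region were counted here from the lines. The chromosomes, fragment ends and library names in the other columns are as the authors deposited them. The build is mm10 per the submitters' processing notes; the aligner, the filters and how duplicates were handled were not given in the sources used here, and 5 lines repeated another. The descriptions give 1 table for both batches, so it was treated as 1 pooled sample of 14 libraries with at least 5000 fragments, and no test was made.

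Fragments were placed by midpoint, in Python 3.11.15 with numpy 2.4.6, scipy 1.17.1 and pandas 2.3.3, and genes came from RefSeq for GRCm38.p6, with chromosome lengths from the first to the last fragment. The intervals and calls, but not the counting of fragments, were tested on simulated Poisson counts with known levels and no spread between libraries. Genes named were the 5, their relatives, protein-coding genes within 200 kb, the highest and lowest bins, the 3 highest and 3 lowest of the pathway list (1 of these is not reported here) and the 2 most alike over libraries; lncRNA genes, some pathway and marker genes and the sides of the flanks were picked after their values were seen. The genes and lists were chosen with earlier results of these data known. Alternatives covered window, placing of fragments, depth, library set, flank width, flanks without other protein-coding genes and bin grid.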

Additional observations from a re-analysis of the deposited data

How the results depend on the processing

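Gab1, Slc38a4 and Smoc1 kept an interval above 1 with 99% intervals, with 0, 1 or 5 kb added to the gene and without any 1 of the 14 libraries. The number of the 5 genes above 1 was 3 or 4 under all of these. Without 1 library at a time, the level was 1.83 to 2.16 at Gab1, 0.975 to 1.12 at Sfmbt2, 1.47 to 1.68 at Slc38a4, 1.11 to 1.41 at Jade1 and 1.63 to 1.81 at Smoc1. Gene over flanks was then 1.60 to 1.76 at Gab1, 0.800 to 0.873 at Sfmbt2, 0.929 to 1.13 at Slc38a4, 0.854 to 1.09 at Jade1 and 1.38 to 1.51 at Smoc1, and that of Sfmbt2 had an interval below 1 only without library 4-2 (0.800, 0.639 to 0.997).

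In the libraries named 4 alone, the level moved to 1.26 at Sfmbt2, 0.906 at Jade1 and 1.15 at Smoc1, from fewer fragments. Gene over flanks moved to 1.28 with 50 kb and 2.09 with 500 kb at Gab1, to 1.16 with 50 kb and 1.10 with 100 kb at Sfmbt2, and to 1.09 with 50 kb at Smoc1; the cause was not tested. The remaining 69 values under other settings stayed within the interval of the reported value or within 1.5 times the reported count.

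Chosen after seeing the data were the windows of 1 and 5 kb at starts (0.720 and 0.763 times the rest, beside 0.643), the grid shifted by 5 kb (15 of 69 bins above 1, beside 17 of 67) and the removal of single libraries from both, which gave 0.581 to 0.697 and 12 (without library 5-4) to 18 bins. The interval of the starts over the rest lay below 1 without library 4-5 (0.584, up to 0.949), 5-1 (0.615, up to 0.986), 5-2 (0.604, up to 0.982) or 5-4 (0.581, up to 0.958). No paired analysis was possible because the table is 1 pooled sample whose libraries are tied to no batch. With 49 to 159 fragments a gene, differences between neighbours in the order of levels were not detectable.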
